A study of Caenorhabditis elegans with 2 samples.

Results

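Small nucleolar RNA (snoRNA) genes were taken as all 346 genes of that class among the 46890 genes of the Ensembl annotation of the worm genome, and each was read together with 500 bp on either side. They were 54 to 344 bp long, with a median of 130 bp. Of the 346 genes, 183 lay wholly inside a protein-coding gene on the same strand, here called the host (40 of them touch an annotated exon of a gene they lie in), 33 lay inside a gene of the opposite strand and 130 lay in neither. The question was where peaks of CEH-28 fell around these genes, for those with a host against the other 163.

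The peaks came from chromatin immunoprecipitation and sequencing of an eGFP-CEH-28 fusion in Caenorhabditis elegans L3 larvae of strain OP241, which carries the mutation unc-119(ed3) on chromosome III and the integrated transgene wgIs241. Whole animals of mixed sex were used in 1 group of 2 biological replicates, with no comparison group, so binding cannot be assigned to a cell type. A thresholded list of 3531 peaks rested on both replicates, and 3 relaxed lists of 30000 peaks each, which hold weak peaks and background, came from replicate 1, replicate 2 and their pool. No read counts were used, so depth is unknown, and the intervals given here are 95% Wilson intervals, or exact Poisson intervals for densities, that cover counting error of genes or peaks only.

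snoRNAs guide chemical modification of ribosomal RNA in the nucleolus. Those of the C/D class direct methylation of the ribose, and those of the H/ACA class direct conversion of uridine to pseudouridine. Many are cut out of introns of their host genes, while others are transcribed from promoters of their own. CEH-28 belongs to the NK-2 class of homeodomain proteins and has been studied in M4, a motor neuron of the pharynx.

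The upstream sequences of snoRNA genes with a peak at their start are shown first, because a short element recurred in them. Each stretch holds 80 bases before and 30 bases from the first base of the gene, 5′ to 3′ along the strand of the snoRNA, on build ce11 (WBcel235), read from the RefSeq genome sequence. Capitals mark the element, AACNNG, then 5 bases in lower case, then TGTC, which was picked after the peaks were seen. These 6 genes have the strongest peaks among those with the element, apart from 1 chromosome whose sequences are not printed here. Y53F4B.47 lies at chrII:15025864-15025973 on the minus strand, T06D8.11 at chrII:11224102-11224211 on the plus strand, C08D8.3 at chrV:8349028-8349137 on the plus strand, C16D9.10 at chrV:8247932-8248041 on the minus strand, C07A9.14 at chrIII:9717300-9717409 on the plus strand and C16D9.11 at chrV:8228940-8229049 on the minus strand.
Y53F4B.47: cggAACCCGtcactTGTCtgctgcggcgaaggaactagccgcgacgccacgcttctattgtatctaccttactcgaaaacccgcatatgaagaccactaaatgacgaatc
T06D8.11: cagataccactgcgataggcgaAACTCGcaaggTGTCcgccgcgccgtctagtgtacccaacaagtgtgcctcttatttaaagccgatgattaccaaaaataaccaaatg
C08D8.3: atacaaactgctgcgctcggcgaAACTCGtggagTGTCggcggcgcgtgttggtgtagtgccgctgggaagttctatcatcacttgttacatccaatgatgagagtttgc
C16D9.10: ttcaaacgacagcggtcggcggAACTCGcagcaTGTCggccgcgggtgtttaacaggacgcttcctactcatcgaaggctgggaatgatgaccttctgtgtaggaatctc
C07A9.14: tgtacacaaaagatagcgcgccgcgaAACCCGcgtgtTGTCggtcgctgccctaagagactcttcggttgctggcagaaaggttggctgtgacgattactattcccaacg
C16D9.11: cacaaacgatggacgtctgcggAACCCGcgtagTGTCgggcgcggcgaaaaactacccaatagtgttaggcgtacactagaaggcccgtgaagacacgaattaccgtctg

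The same letters also stood before snoRNA genes without a peak. W07G1.23 at chrII:13946866-13946975, Y48A6C.10 at chrIII:11118281-11118390 and W03B1.17 at chrIV:4347552-4347661, each on the plus strand, are shown because they carry the element with no summit within 150 bp of the 5′ end even in the relaxed pooled list. W07G1.23 is 91.8% identical to another snoRNA gene, over the shorter gene of the pair. Its lack of a peak is therefore uncertain, since the placing of reads that match several places is not known.
W07G1.23: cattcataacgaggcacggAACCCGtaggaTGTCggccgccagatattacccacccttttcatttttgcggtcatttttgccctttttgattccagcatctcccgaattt
Y48A6C.10: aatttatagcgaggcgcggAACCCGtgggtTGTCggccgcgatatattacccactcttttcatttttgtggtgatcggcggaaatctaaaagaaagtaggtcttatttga
W03B1.17: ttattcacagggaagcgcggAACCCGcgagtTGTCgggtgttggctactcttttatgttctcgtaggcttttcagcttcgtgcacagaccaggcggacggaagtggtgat

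A second sequence, shown in capitals in the stretches that follow, is the box B of tRNA genes in a lenient form, GTTCNANNC, also chosen after the data were examined. In tRNA genes this box is part of the internal promoter read by RNA polymerase III through TFIIIC. Y43F8C.22 lies at chrV:19643158-19643267 on the minus strand, C51F7.3 at chrV:12303628-12303737 on the plus strand, where 2 matches stand, and W03C9.9 at chrII:11960818-11960927 on the plus strand.
Y43F8C.22: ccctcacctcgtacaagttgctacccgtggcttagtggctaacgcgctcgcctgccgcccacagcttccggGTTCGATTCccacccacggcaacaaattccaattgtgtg
C51F7.3: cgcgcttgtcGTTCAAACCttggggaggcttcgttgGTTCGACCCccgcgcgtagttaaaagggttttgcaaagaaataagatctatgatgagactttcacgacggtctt
W03C9.9: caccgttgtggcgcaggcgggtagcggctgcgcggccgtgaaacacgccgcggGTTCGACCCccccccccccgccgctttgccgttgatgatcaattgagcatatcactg

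A thresholded summit, the single base the authors' peak caller gave as the top of a peak, lay within 500 bp of 53 of the 346 snoRNA genes, or 15.3% (11.9 to 19.5). Over all annotated genes the share was 8.42%, and over genome tiles of 1130 bp, the length of a typical snoRNA window, it was 3.73%. Tiles centred in introns of protein-coding genes gave 3.15%, and tiles centred outside protein-coding genes gave 4.55%. Among other short RNA genes the shares were 17.8% (12.2 to 25.3) of 129 snRNA genes, 12.7% (10.3 to 15.6) of 612 tRNA genes, 10.7% (7.53 to 15.1) of 261 miRNA genes and 1.12% (0.965 to 1.30) of 15363 piRNA genes. The many piRNA genes lower the share over all annotated genes. Protein-coding genes, which are longer, gave 14.4% (13.96 to 14.94), so the snoRNA share was near theirs and above the tiles.

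snoRNA genes with and without a host had similar shares. A summit lay near 26 of the 183 genes with a host, or 14.2% (9.88 to 20), and near 27 of the other 163, or 16.6% (11.6 to 23.0). The intervals overlap, and the difference was not tested, because genes are not replicates of a condition. Of the 33 genes inside a gene of the opposite strand 5 had a summit, F07A11.15, ZK484.9, Y55F3BR.9, C07A9.14 and R08C7.19. Of the 130 genes inside neither, 22 had one, or 16.9% (11.4 to 24.3).

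Counted by length, with overlapping windows merged into 321 regions of 376 kb, snoRNA loci held 56 summits, or 14.9 per 100 kb (11.2 to 19.3). Regions of genes with a host held 14.7 per 100 kb and those of the other genes 15.1. The whole genome held 3.52 per 100 kb (3.41 to 3.64), introns of protein-coding genes 3.17, and protein-coding promoter windows, from 1000 bp upstream to 200 bp downstream of an annotated 5′ end, 7.08. The 56 summits were 1.59% of the thresholded list, and 4 snoRNA genes, K02F3.15, Y37E3.20, F59C6.15 and F58D5.12, had more than 1 in their window.

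Summits were most frequent near the first base of the snoRNA gene, although 24 of the 56 lay beyond 150 bp of it. Positions are given from that base along the snoRNA strand, negative upstream. The median position was -42 bp over 57 pairs of gene and summit, -81 bp for genes with a host and -34.5 bp for the others. Of the 57 pairs 36 were upstream of the gene, 12 inside it and 9 downstream, and 17 were within 100 bp upstream. Among the 29 pairs of genes with a host, 9 were over 300 bp upstream. A summit lay within 150 bp of the 5′ end of 33 of 346 snoRNA genes, or 9.54% (6.87 to 13.1), against 2.42% of all annotated genes. The share was 7.65% (4.61 to 12.4) for genes with a host and 11.7% (7.59 to 17.5) for the others. For tRNA genes it was 9.31% and for snRNA genes 13.2% (8.39 to 20.1), while for miRNA genes it was 1.53% (0.598 to 3.87) and for protein-coding genes 3.26%.

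**Figure D1:**
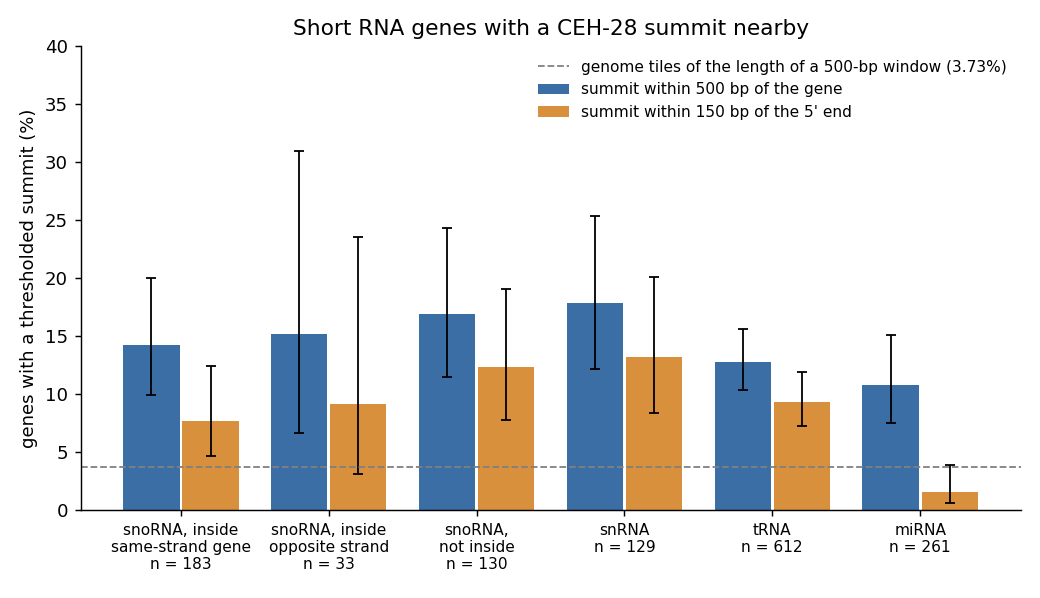
Share of genes in percent with a thresholded summit within 500 bp of the gene (blue) or within 150 bp of its 5′ end (orange), by class of short RNA gene, with 95% Wilson intervals as bars and genome tiles as a dashed line. All 3 snoRNA classes lie above the tiles at 3.73% in the blue bars, and miRNA genes, at 1.53%, are the lowest in the orange bars.

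**Figure D2:**
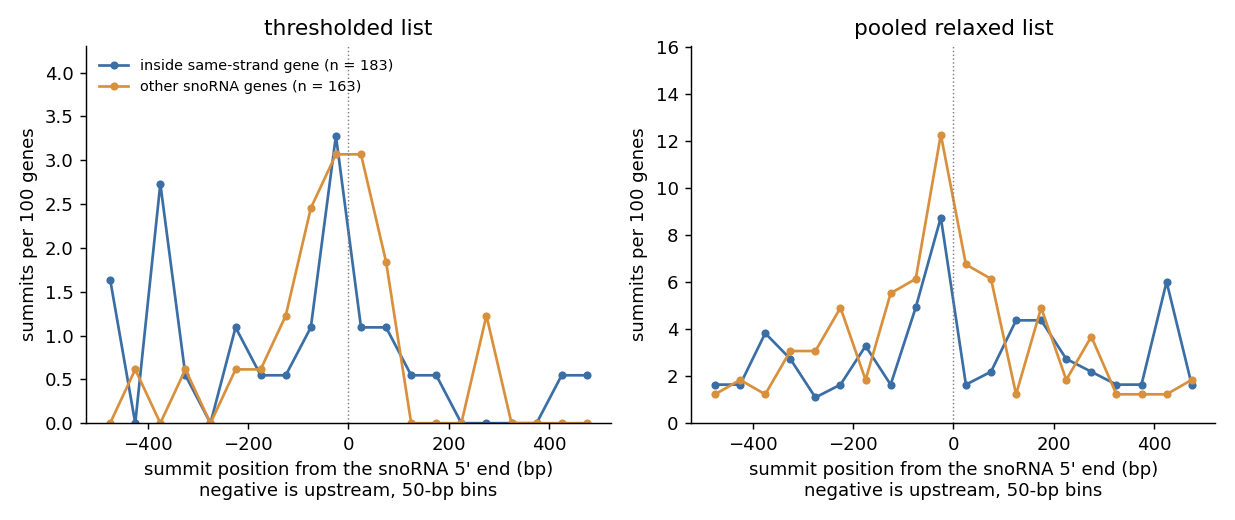
Summits per 100 snoRNA genes (y axis) in 50-bp bins along the position from the snoRNA 5′ end in bp (x axis, negative upstream), in the thresholded list (left) and the relaxed pooled list (right), for 183 genes with a same-strand host and 163 others. Both classes are highest within 50 bp of the 5′ end in both lists, and in the thresholded list genes with a host show a further group of summits over 300 bp upstream.

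Summits at genes with a host were sorted by position alone, since a peak cannot be assigned to 1 of several neighbouring genes. Among the 26 with a summit, 10 had it within 150 bp of the snoRNA 5′ end and outside every promoter window of the host, 11 had it only in a promoter window of the host, and 4 had both. The remaining gene, C04A2.16, in egl-27, which encodes an MTA-like chromatin protein, had a summit at -380 bp, in neither place. For the other snoRNA genes 19 of 27 had the summit within 150 bp. Over all 56 summits 31 lay in a protein-coding promoter window, or 55.4% (42.4 to 67.6), close to the 52.8% of all thresholded summits. Of the 32 summits within 150 bp of a snoRNA 5′ end, 12 did so, or 37.5% (22.9 to 54.8).

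Hosts for ribosomal proteins were counted apart. snoRNA genes in rpl and rps genes and in ubl-1, a fusion of a ubiquitin-like and a ribosomal protein, had a summit within 500 bp in 6 of 21 cases, or 28.6% (13.8 to 49.96), and within 150 bp of the 5′ end in 0 of 21, with an upper Wilson limit of 15.5%. The 6 were D1007.20 in rpl-24.1, B0041.9 in rpl-4, B0412.6 in rps-29, Y24D9A.9 in rpl-7A, H06I04.9 in ubl-1 and F54E7.10 in rps-12, and all 6 summits were in a promoter window of the host. snoRNA genes in other hosts had a summit in 20 of 162 cases, or 12.3% (8.14 to 18.3), and one near the 5′ end in 14 of 162, or 8.64%, which lies below the upper limit for ribosomal protein hosts.

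The strength of peaks at snoRNA loci was near that of the list, with no excess among its strongest peaks. Of the 56 peaks 35, or 62.5% (49.4 to 74.0), ranked above the median of the list. The signal, the authors' value per peak, had a median of 122 over the 56 peaks, with a range of 68.1 to 726, against a median of 109.5 and a highest value of 5643.5 over all 3531. Among the strongest 100 peaks 1 was at a snoRNA gene, among the strongest 500 there were 5, or 1.0%, and among the strongest 1000 there were 14, or 1.4%. Over the whole list the share was 1.59%. The genes named here are the 12 with a host and the 12 others with the highest signal.

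The strongest peaks at snoRNA genes with a host lay far from the snoRNA 5′ end. At C06A1.9, inside cdc-48.1, an AAA ATPase gene, the signal was 418 in replicate 1 and 313 in replicate 2, and 726 in the thresholded list, with the peak at chrII:10563413-10563721 and its summit at -499 bp in the promoter window of cdc-48.1. At F54E7.10 in rps-12 the replicates gave 251 and 182, with the summit at -242 bp. At K02F3.15 in zip-2, a gene for a bZIP transcription factor of immune responses, they gave 317 and 73.5, 493 bp downstream of the 5′ end. Replicate 1 gave the higher signal at all 3, and at K02F3.15 the signals differed most of the 24 named genes. Signals of separate lists need not share a scale. By rank within its list replicate 2 was ahead at C06A1.9 (75 against 104) and F54E7.10 (232 against 249). At K02F3.15 replicate 1 was ahead (168 against 1068). At C04A2.16 the signals were close, at 167 and 163, with ranks of 452 in replicate 1 and 289 in replicate 2. At T06D8.11 in plpr-1 the summit was 62 bp downstream of the 5′ end, outside the promoter windows of protein-coding genes, with 113 and 115. The signals there were nearly equal, at ranks 766 in replicate 1 and 526 in replicate 2, and the element stands upstream of this gene.

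Peaks of the other 7 named genes with a host were weaker. F39B2.14, in tmem-107 of the ciliary transition zone, had signals of 117 and 94.0, and its summit, at -103 bp, was also in the promoter window of rps-26. C08D8.3 in C08D8.1 had 79.4 and 96.2, with its summit 64 bp downstream of the 5′ end. D1046.6, in the gene of the mRNA cleavage factor subunit cfim-2, had 74.5 and 65.2 with its summit at -10 bp. These 3 were all near the snoRNA 5′ end. Y37E3.20 in pcyt-2.1 had 57.98 and 73.6, with its strongest thresholded summit at -29 bp. The replicate summits were at 135 bp in replicate 1 and -18 bp in replicate 2. The same relaxed peaks also overlapped its second thresholded peak, with the summit at 178 bp, so these signals belong to neither peak alone. Y24D9A.9 in rpl-7A had 66.1 and 71.1, and H06I04.9 in ubl-1 had 78.4 and 61.0, both over 300 bp upstream. K07C5.11 lies in nol-56, which encodes a core protein of C/D snoRNA particles, and had 67.8 and 62.5 at -359 bp, in the nol-56 promoter window.

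Among snoRNA genes without a same-strand host, M7.15 had the strongest peak. The signal was 294 in replicate 1 and 257 in replicate 2, at -127 bp, in a window shared with the promoters of klc-1, the kinesin light chain gene, and let-70, a ubiquitin-conjugating enzyme gene. ZK20.9 had 124 and 144 at -50 bp, and C26C6.13 had 130.5 and 127.5 at -168 bp, both outside protein-coding promoter windows. Y53F4B.47 had 136 and 120.4 at -42 bp, in the promoter window of the cap methyltransferase gene cmtr-1. At these 4 genes each replicate placed its own summit on the same side of the 5′ end.

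The remaining 8 named genes had thresholded signals of 135 to 238. R08C7.19, inside chat-1 on the opposite strand, had 133.5 and 95.8, and F07A11.15, inside din-1, had 73.5 and 126, so the order of the replicates turned between them. Both summits were in the promoter window of the surrounding gene. F59C6.15 had 82.4 and 101.5 at -99 bp, and C16D9.10 had 77.7 and 74.0 at 65 bp inside the gene. F37A8.7 had 85.4 and 66.0, and F37F2.4 had 98.3 and 57.3, both more than 250 bp from the 5′ end. F09G2.14 had 83.9 and 55.0 at -81 bp, in the promoter window of attf-2, which encodes an AT-hook protein. D2021.6 had 70.2 and 69.1 at -52 bp, in the promoter window of the succinate dehydrogenase gene sdha-1. It was the only one of 33 snoRNA genes on the X chromosome with a thresholded summit, and the share over all genes of that chromosome is not given here.

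**Figure D3:**
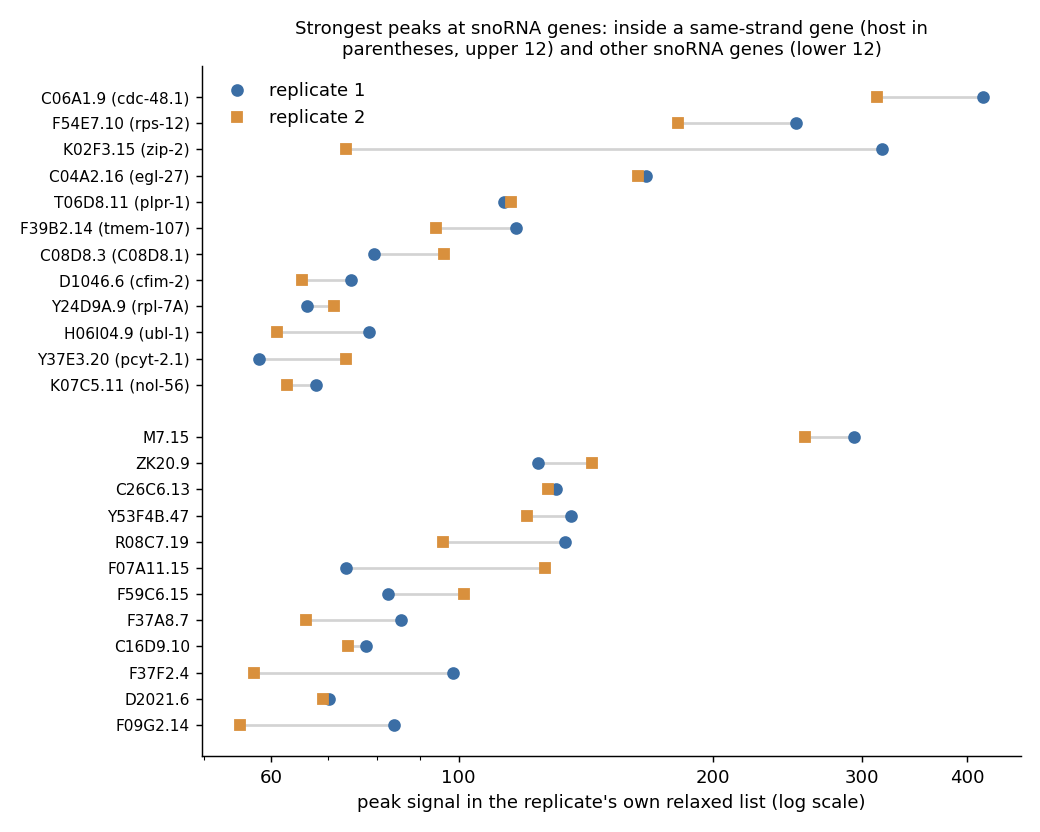
Peak signal of replicate 1 (circles) and replicate 2 (squares), each in its own relaxed list, on a log axis, for the 12 snoRNA genes with a same-strand host (upper rows, host in parentheses) and the 12 others with the strongest peaks. Grey lines join the replicates; the longest is at K02F3.15, with 317 against 73.5.

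The 56 peaks were then looked up in each replicate. Every one overlapped a relaxed peak in both, by at least 1 bp, which the making of the thresholded list from both replicates already favours. Replicate 1 had the higher signal at 32, but signals of separate lists need not share a scale. The median rank of the partners was 1596.5 in replicate 1 and 1326 in replicate 2, so by rank replicate 2 was ahead. Among the strongest 3531 peaks of each replicate a partner was found for 50 in replicate 1 and for 50 in replicate 2, and for 44 of the 56 in both. The partner taken was the strongest relaxed peak that overlapped, not the nearest summit, so it can be another site. At ZK484.11 the thresholded summit was at -445 bp, and the replicate summits were at -696 and -652 bp. The replicate signals given per gene are those of these partners. The summits of the partners were a median of 25.5 bp apart, and 43 of 56 pairs were within 50 bp. One peak in frm-7 served both C51F7.4 and C51F7.3 and had signals of 79.3 and 25.6, at rank 1250 in replicate 1 and 5511 in replicate 2. The relaxed summits were common everywhere, and the snoRNA shares are read against that.

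In the relaxed lists snoRNA genes had a share above the tiles and near that of tRNA and protein-coding genes. A pooled summit lay within 500 bp of 192 of 346 snoRNA genes, or 55.5% (50.2 to 60.6), against 41.0% of all genes and 27.4% of tiles. tRNA genes gave 55.9%, protein-coding genes 53.4%, miRNA genes 39.8% and snRNA genes 38.8%. Replicate 1 gave 56.1%, against 42.7% of genes and 27.7% of tiles, and replicate 2 gave 54.9%, against 40.6% and 27.5%. Genes with a host gave 50.3% (43.1 to 57.4) and the others 61.3% (53.7 to 68.5) in the pooled list, and the order was the same in each replicate, 51.9% against 60.7% in replicate 1 and 53.6% against 56.4% in replicate 2. Within 150 bp of the 5′ end the pooled list gave 29.8% (25.2 to 34.8) of snoRNA genes, against 13.5% of all genes, 38.6% of tRNA genes, 26.4% of snRNA genes and 15.2% of protein-coding genes. There, genes with a host gave 22.4% (16.97 to 29.0) and the others 38.04% (30.9 to 45.7), with replicate values of 23.5% and 23.0% against 34.4% and 36.8%.

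The element shown above stood on the sense strand between 150 bp upstream and 20 bp downstream of the 5′ end of 36 snoRNA genes, or 10.4% (7.61 to 14.1). The same window held it for 24.0% (17.5 to 32.1) of snRNA genes, 0.654% of tRNA genes, 1.53% of miRNA genes and 0.270% of protein-coding genes, and 171-bp tiles of the genome, read on 1 strand, held it in 0.348%. Its first base stood between -80 and -54 bp, with a median of -59, and for 28 of the 36 between -63 and -54. As background, snRNA genes of animals carry a proximal sequence element at about this place, read by the SNAP complex, and whether these letters are that element was not tested. A match is a description of letters, not of a bound site.

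snoRNA genes with the element made up 17 of the 33 with a summit at the 5′ end. A thresholded summit lay within 150 bp of the 5′ end of 17 of 36 genes with the element, or 47.2% (32.0 to 63.0), and of 16 of 310 without it, or 5.16% (3.20 to 8.22). Since the element was picked from genes with peaks, this difference is a description and has no test. It was seen in each class, with 7 of 12 against 7 of 171 genes with a same-strand host, 2 of 6 against 1 of 27 inside a gene of the opposite strand, and 8 of 18 against 8 of 112 inside neither. In the pooled relaxed list the counts were 23 of 36, or 63.9% (47.6 to 77.5), and 80 of 310, or 25.8% (21.3 to 30.9), and each replicate alone also gave 23 of 36. The signal over these 17 peaks ran from 40.1 through a median of 64.2 to 135.8 in replicate 1 and from 30.1 through 66.2 to 120.4 in replicate 2. The ranges overlap, and the signal was the higher in replicate 1 at 9 of the 17, with each signal on the scale of its own list.

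Of the 19 genes with the element and no thresholded summit, 13 had no pooled summit near the 5′ end and 6 had a weak pooled peak there, with signals of 19.3 to 65.2 and a median of 52.4. Genes with the element and a peak included C16D9.11 in rol-3, a receptor tyrosine kinase gene, with 64.2 and 61.6, and W04D2.7 in the innexin gene inx-11, with 58.2 and 59.1. ZK994.7 in the peroxidasin gene pxn-1 had 58.6 and 43.7, and C07A9.14, opposite to the exchanger gene ncx-7, had 65.1 and 55.7. At these 4 genes none of the summits lay in a protein-coding promoter window. Summits stood downstream of the element more often than on it, a median of 51 bp past its centre, from -35 to 141, with 8 of 17 within 50 bp.

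Away from snoRNA and snRNA genes, matches of the element had summits at a rate somewhat below that of the whole genome, a difference that was not tested. Of its 4253 matches in the genome on either strand, 39 had a thresholded summit within 100 bp, or 0.917%. Near snoRNA 5′ ends 13 of 41 matches did, or 31.7%, near snRNA 5′ ends 5 of 29, or 17.2%, and elsewhere 21 of 4183, or 0.502%, while 0.708% of all genome bases lay within 100 bp of a thresholded summit. With the pooled list it was 192 of the 4183 elsewhere, or 4.59%, against 6.01% of genome bases. Of 54 protein-coding genes with the element in the same window 0 had a summit within 150 bp of the 5′ end, with an upper Wilson limit of 6.64%, which takes in the 3.26% of all protein-coding genes. In the pooled list 8 of the 54 did, or 14.8%, near the 15.2% of all protein-coding genes. Of 31 snRNA genes with the element 7 had a thresholded summit, or 22.6% (11.4 to 39.8). Over all 129 snRNA genes, which include these 31, 17 did, or 13.2%.

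Some near-identical snoRNA genes differed in whether they had a peak. No snoRNA gene had an identical copy, and 13 pairs, of 18 genes, were at least 90% identical over the shorter gene. F59C6.15, with signals of 82.4 and 101.5, and F25H2.15, with 53.5 and 86.9, are 97.1% identical and both had a summit within 150 bp of the 5′ end. Y67A10A.14, 97.1% identical to F59C6.15, had the element and no thresholded or pooled summit there, with a relaxed summit in replicate 1 alone. T19C4.11 and F43A11.8, which are 98.3% identical to each other and carry the element as well, had none within 150 bp in any of the 4 lists. T26A8.6 had signals of 42.6 and 70.6, while its near copy T08B6.64, 95.6% identical, had no thresholded summit there, a pooled peak of 55.5 and a relaxed summit near the 5′ end in replicate 2. How reads that match several places were placed is not given in the sources used here, so these values are uncertain.

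Box B stood at a different set of snoRNA genes. The lenient form stood in the same window of 41 snoRNA genes, or 11.8% (8.86 to 15.7), close to the 10.9% (6.58 to 17.4) of snRNA genes. It stood there in 2.45% of tRNA genes, whose own box B lies further inside the gene, 4.98% of miRNA genes, 2.72% of protein-coding genes and 3.25% of tiles. None of the 41 snoRNA genes had the element. A thresholded summit lay within 150 bp of 4 of them, Y43F8C.22, C51F7.3, W03C9.9 and ZK484.9, or 9.76% (3.86 to 22.6). A pooled relaxed summit lay there at 26 of 41, or 63.4% (48.1 to 76.4), with 23 in replicate 1 and 24 in replicate 2. For the 269 genes with neither sequence the counts were 12, or 4.46% (2.57 to 7.63), and 54, or 20.1% (15.7 to 25.3). The replicate signals were 62.8 and 59.4 at Y43F8C.22, 79.3 and 25.6 at C51F7.3, 36.1 and 51.4 at W03C9.9 and 29.99 and 38.02 at ZK484.9. The medians of the 56 peaks were 65.6 in replicate 1 and 63.9 in replicate 2, so C51F7.3 was above the first and below the second, and the other 3 genes were below both. Annotated tRNA genes were seldom beside them, since 2 of the 346 snoRNA windows held one.

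**Figure D4:**
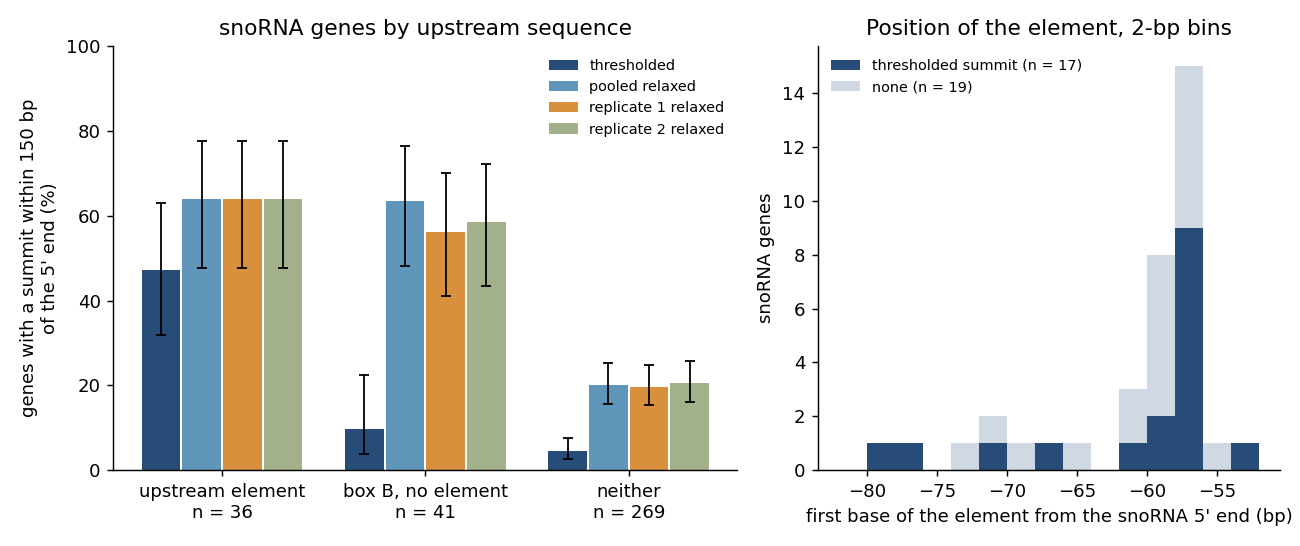
Left, share of snoRNA genes in percent with a summit within 150 bp of the 5′ end in the thresholded list and the 3 relaxed lists, for 36 genes with the upstream element, 41 with box B and 269 with neither, with 95% Wilson intervals. Right, number of snoRNA genes by the position in bp of the first base of the element in 2-bp bins, with a thresholded summit (17, dark) or without (19, light); most stand near -58, and the element and box B groups differ in the thresholded bars, at 47.2% and 9.76%, more than in the pooled ones.

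Short sequences were counted at the snoRNA peaks and at the other thresholded peaks. AATCRAT, where R is A or G, stood within 50 bp of the summit, on either strand, in 11 of 56 peaks at snoRNA genes, or 19.6% (11.3 to 31.8), and in 47.8% (46.1 to 49.5) of the other 3475 peaks. It was in 4 of the 32 peaks within 150 bp of a snoRNA 5′ end and in 7 of the other 24. Its form AATCGAT, counted within it, was in 14.3% (7.42 to 25.7) and 35.7%. TYAAGTG, the core letters bound by NK-2 proteins, where Y is C or T, was in 1 of 56 peaks and in 1.29% of the others, and CTGCGTC was in 3 of 56 and in 8.60%. The element was within 50 bp of 9 of the 56 summits, or 16.1% (8.69 to 27.8), and of 0.345% of the other summits, and the strict box B, GTTCGANNC, of 3 of 56 and of 0.662%. None of these differences was tested, since peaks are not replicates. The element was picked from genes with these same peaks, so its higher share here follows in part from that choice.

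The class of snoRNA could be read from sequence for only some genes. By a simple rule chosen after the data were examined, GATGA within the first 30 bases with CTGA within the last 20, 26 of the 346 genes had C/D box motifs. Of these, 8 had a thresholded summit, or 30.8% (16.5 to 49.99), all 8 within 150 bp of the 5′ end, and 7 of the 26 carried the element. By the letters ACA 2 to 4 bases before the end, 74 genes had an H/ACA end, of which 12 had a summit, or 16.2% (9.53 to 26.2), 3 near the 5′ end, and 1 had the element. The 246 genes with neither had 33 with a summit, or 13.4% (9.71 to 18.2), 22 near the 5′ end, and 28 had the element. For summits within 500 bp the intervals of the 3 classes overlap. Within 150 bp of the 5′ end the shares were 30.8% (16.5 to 49.99) for C/D motifs and 4.05% (1.39 to 11.25) for H/ACA ends. Genes with neither gave 8.94% (5.98 to 13.2) there. The C/D interval lies above both others, a difference that was not tested. All 8 C/D genes with a summit have box B (W03C9.9 and C51F7.3) or the element (Y74C9A.6, C18A3.12, T06D8.11, Y55F3BR.9, C16D9.10 and C08D8.3). The class difference is thus not separate from the grouping by those sequences. The rule leaves most genes without a class.

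snoRNA genes with a summit were found on all 6 chromosomes. The counts were 14 of 74 genes on chromosome I, 9 of 71 on II, 8 of 54 on III, 9 of 59 on IV, 12 of 55 on V and 1 of 33 on X. The element stood at 5, 8, 3, 11, 7 and 2 genes in that order, of which 5, 3, 1, 3, 5 and 0 had a thresholded summit near the 5′ end. Chromosome IV thus had the most genes with the element, and 8 of its 11 lacked a thresholded summit, while on II 3 of 8 had one. Shares over all genes or tiles of each chromosome are not given here. These counts therefore do not show that snoRNA genes of any chromosome differ from its other genes.

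Genes for the protein partners of snoRNAs were looked up apart, from 8 names chosen with earlier results known. The promoter windows of 7 of them held a thresholded summit, against 11.2% of all protein-coding genes. For the C/D particle the thresholded signal was 566 at fib-1, the fibrillarin methyltransferase gene, which had 2 summits, 128 at nol-56 and 110.1 at nol-58, with none at snu-13. For the H/ACA particle it was 171.4 at dkc-1, the pseudouridine synthase gene, 104 at Y48A6B.3, the NHP2 gene, 87.3 at nola-3 and 86.4 at garr-1. The fib-1 peak was thus the strongest of these and the only one within the strongest 500 peaks of the list.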

How the data were processed

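Peak lists on ce11 were used as deposited; ce10 lists were not used. Per the deposited file records, the authors called relaxed peaks for each replicate and the pool with a control, and kept the thresholded peaks by irreproducible discovery rate. The signal and the −log10 q-value of each peak are the authors' values, and peaks were ranked by signal within a list. Neither the aligner nor the peak caller is given in the sources used here. In replicate 2, 1 summit past its interval end was set to the last base. Whether the replicates are separate cultures beyond the label biological is not stated.

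Genes came from Ensembl release 115. A summit within 500 bp of a gene was counted, with Wilson intervals; no test was run. Members, lists and the rule for named genes (the 12 strongest with a host and the 12 strongest others, 1 per peak, and all members of counts of 5 or fewer) were chosen with earlier results of these data known. The element, lenient box B, 150-bp distance, box classes, protein-partner list and printed sequences were chosen after the data were examined. Counting was checked on simulated data. Python 3.11.15, numpy 2.4.6, pandas 2.3.3 and scipy 1.17.1 were used.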

Additional observations from a re-analysis of the deposited data

How the results depend on the processing

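Of 92 alternative values, 75 stayed within the limits set (counts within 1.5 times) and 17 moved. With windows of 1000 bp in place of 500 bp, 91 snoRNA genes had a summit, 53 of them with a host; with 250 bp, 17 with a host did, as wider windows hold more summits. Peaks above the median signal alone gave 35 genes, 17 with a host, 9.31 summits per 100 kb, a median signal of 144, 21 genes with a summit near the 5′ end and a share with one of 2.26% among genes without the element, fewer or higher by construction. Leaving out summits in protein-coding promoter windows gave 25 genes, 11 with a host and 14 others, 21 with one near the 5′ end and a share of 2.90% among genes without the element, also by construction. Overlap of the peak interval in place of the summit gave 19.4 peaks per 100 kb, since intervals reach further. The median signal in the strongest peaks of each replicate alone was 56.6 to 64.2, on the scale of another list. Alternatives for the 5′ end, the element and box B were chosen after seeing the data. No paired analysis was possible because there is 1 group. Depth is unknown, so a snoRNA gene without a summit is not shown to be unbound, and with a median interval of 400 bp a peak cannot be assigned to 1 of several neighbouring genes.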
